A study of Acer rubrum with 15 samples.

Results

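Leaves that had spent 14 days in shade at 40% of full light were compared between a cool regime (LL, days at 15 °C, nights at 5 °C) and a warm regime (CL, days at 30 °C, nights at 20 °C). The comparison used 6 libraries, 3 for each regime, of the 15 in the series, and it covered the 419 rows of the deposited table that carry a miRNA. These are 176 hairpin entries and a set of mature entries with known miRNA names, plus 76 predicted miRNAs, out of 8849 rows. All plants were cuttings of the red maple Acer rubrum L. 'Autumn Blaze', an ornamental tree with red autumn leaves. Before the regimes began they were kept in an ordinary greenhouse at 25 to 30 °C. The other groups served as side values. They were full light with the warm regime (CC) and with the cool regime (LC), both on day 14, and untreated leaves of day 0 (Control), whose label names a mix of leaves. The study asks how light and temperature act on leaf colour change, and LL against CL compares the temperature regimes under shade. Samples of a group are labelled biological replicates, with no word on whether each is a separate plant. The p-values therefore measure the spread among these libraries, which may be technical. The label gives the tissue as leaf cells. The table holds no protein-coding gene by which that could be checked, and rows of the reproductive-tissue family miR2275 numbered 0.

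Plant miRNAs are short RNAs cut from hairpin precursors and loaded into Argonaute proteins, where they guide cleavage or silencing of messenger RNAs with a closely matching site. Many are conserved families that control transcription factors of leaf development, hormone signalling and pigment synthesis. Others are switched on when phosphate, sulfate or copper runs short and lower the proteins that use or export these nutrients. Members of a family differ by few bases or none, so a read can often be given to more than one name. The sources used here pair no sequence with any name, and none is printed.

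The CL libraries held 19018269, 20822592 and 20760381 counted reads, and the LL libraries 18166662, 18445694 and 20613304. Reads carrying a miRNA name made up 9.90%, 11.5% and 15.2% of the CL libraries and 14.0%, 14.5% and 16.7% of the LL libraries. These ranges overlapped, and the difference did not pass a two-sided exact permutation test (p = 0.3, where 3 libraries against 3 cannot go below 0.1). In a bulk sample fewer cells of a type and less RNA per cell cannot be told apart. Levels are given in CPM, counts per 1000000 miRNA reads (mature and predicted) after TMM scaling (a trimmed mean of log ratios between libraries), for replicates 1, 2 and 3 in order. Differences are log2 values of LL over CL ± SE, the SE being derived from the test statistic. "Rose" and "fell" mean higher or lower in LL than in CL on day 14 at a Benjamini-Hochberg adjusted p under 0.05 in edgeR's quasi-likelihood test.

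Of 179 single miRNAs tested, 31 rose (17.3%) and 17 fell (9.5%), 26.8% in all. The median log2 difference over all 179 was 0.23, and the CPM of the groups did not overlap for 89 (49.7%). Known miRNAs moved upwards more often than downwards, with 24 of 105 higher and 8 lower, whereas 7 of the 74 predicted miRNAs tested were higher and 9 lower. When mature and hairpin reads of one miRNA number were summed into 35 families, 34 could be tested. Of these 9 rose (26.5%) and 3 fell (8.82%), 35.3% in all, with a median log2 difference of 0.47, and 16 had groups that did not overlap (47.1%). The direction of small differences depended on the scaling and on other settings. With relative-log-expression size factors the median over single miRNAs moved by -0.17 and 25 rose against 21 that fell. Taking library size alone moved it by -0.44 and left 20 rises and 25 falls. Among families the same scaling left 6 rises and 4 falls. With no filter 25 single miRNAs rose and 23 fell, and with the stricter filter (10 CPM in at least 3 libraries) 24 and 35. DESeq2 gave 27 and 25, and a fit of only the 6 libraries 34 and 32. The split was 26 and 18 with all reads as library size, and 29 and 15 with the replicate number as a block. With predicted miRNAs left out, 19 known miRNAs rose and 10 fell. The number of single miRNAs called dropped to 31, 28 and 27 without CL replicate 1, 2 and 3, and the number of families to 7 without CL replicate 3.

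**Figure D1:**
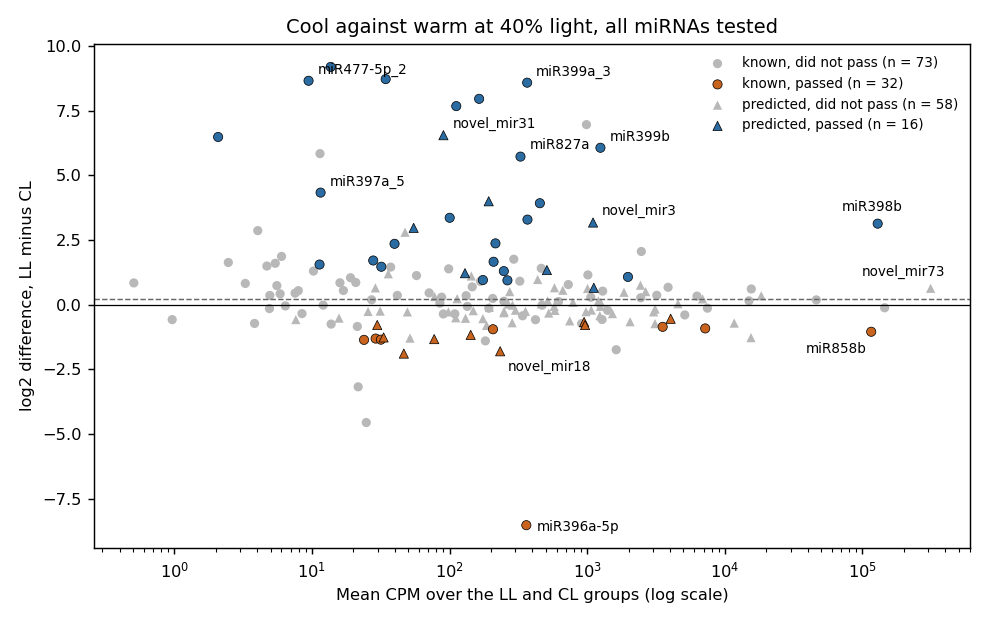
Log2 difference of LL minus CL (vertical axis) against the mean CPM of both groups (horizontal log axis) for the 179 miRNAs tested. Circles are known and triangles predicted miRNAs, blue marks higher and orange lower in LL past the test, grey did not pass, and the dashed line is the median of 0.23. Members of miR399 and miR477 lie at the top (for the entries with 0 reads in CL the height depends on the fit and is no bound), and the falls other than miR396a-5p stay above -2.

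The miRNA reads of these leaves were carried by few entries. Between 81.5% and 88.8% of the miRNA reads in CL belonged to the 10 most abundant miRNAs, and between 87.0% and 89.6% in LL. Among these 10 the largest shift in share was that of miR398b, which guides cleavage of copper/zinc superoxide dismutase messages. It took 2.85%, 3.23% and 3.45% of the miRNA reads in CL and 31.6%, 16.1% and 18.9% in LL. The groups were far apart, and the share in LL replicate 1 was well above that of the other LL libraries. miR858b, which lowers MYB factors that drive flavonoid genes, made up 15.5%, 15.8% and 23.7% of the miRNA reads in CL and 8.69%, 4.72% and 7.90% in LL. Here all LL libraries lay below all CL libraries. As a single miRNA miR858b fell, a call lost under 4 of 16 alternatives (adjusted p 0.00796 to 0.277 over all alternatives). Without CL replicate 3 its log2 difference was -0.57. The predicted novel_mir73 was the most abundant of all in 5 of the 6 libraries, with 31.2%, 27.5% and 30.9% in CL and 24.5%, 42.2% and 37.1% in LL. It did not pass the test (log2 difference 0.64 ± 0.33, adjusted p = 0.192). miR166a-3p, which restricts HD-ZIP III factors of leaf polarity, did not pass either (-0.12 ± 0.34, adjusted p = 0.845). Its share was 15.4%, 18.4% and 20.3% in CL and 10.8%, 13.1% and 14.3% in LL, also without overlap. Shares within a library depend on each other, so a gap in share alone is no test of a fall.

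**Figure D2:**
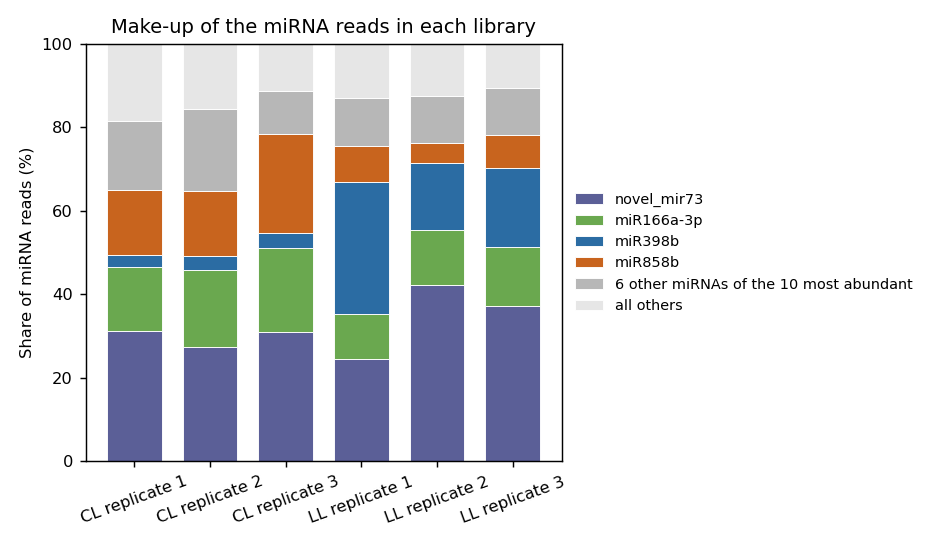
Share of the miRNA reads (vertical axis, percent) held by the most abundant miRNAs in each of the 6 libraries. The blue segment of miR398b is 2.85% to 3.45% of the reads in CL and 16.1% to 31.6% in LL, while the orange segment of miR858b is 15.5% to 23.7% in CL and 4.72% to 8.69% in LL.

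Families tied to phosphate and sulfate supply were mostly higher in the cool leaves. Of the 4 families of this list 3 rose (against 26.5% of all families), 0 fell (against 8.82%), and the median log2 difference was 3.58 against 0.47 over all families. miR399 lowers PHO2, a ubiquitin-conjugating enzyme that limits phosphate uptake and transport. The family stood at 50.1, 59.8 and 81.1 CPM in CL and 4700.5, 5858 and 7509 CPM in LL. Every LL library was above every CL library, by 94.5-fold in the fit (log2 difference 6.56 ± 0.54, adjusted p = 3.12e-07). miR827, which in Arabidopsis lowers the ubiquitin ligase NLA and in rice phosphate transporters with an SPX domain, stood at 14.3, 16.00 and 13.01 CPM in CL and 715, 764 and 736 CPM in LL. Replicates lay within a narrow band in both groups, and the family rose 50.98-fold (5.67 ± 0.31, adjusted p = 5.07e-09). Both calls were kept under all 18 alternatives run, with log2 differences of 6.07 to 6.76 for miR399 and 5.23 to 5.72 for miR827. In LL both families were also above their day 0 means of 2024 and 201 CPM, a side value that was not tested.

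The sulfate regulator miR395, which lowers ATP sulfurylases and a sulfate transporter, showed a smaller difference. It stood at 49.4, 34.8 and 32.5 CPM in CL and 103, 151 and 72 CPM in LL. The groups did not overlap, and the family rose 2.79-fold (1.48 ± 0.36, adjusted p = 0.00713). The call was lost without CL replicate 2 (log2 difference 1.14) or LL replicate 2 (0.93), with library size only (1.01) and with the most abundant member in place of the sum (adjusted p 8.26e-04 to 0.691 over all alternatives). miR2111, a shoot-made miRNA known from legumes and Arabidopsis to respond to nitrogen and phosphate status, was counted with 19, 22 and 15 reads in CL and 19, 21 and 26 in LL. Nearly all of these were hairpin reads (98.2% in CL and 100.0% in LL), and the mature entry held 1 read in CL and 0 in LL. The groups of the family sum overlapped and it did not pass (0.41 ± 0.34, adjusted p = 0.421). The difference turned to -0.05 with library size only.

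All 6 mature entries of miR399 rose, each with groups that did not overlap, and so did all 6 of its hairpin entries that could be tested (of 7). The call of the miR399f_3 hairpin was lost without CL replicate 3 (6.74, adjusted p = 0.0565). The most abundant member, miR399b, went from 28.97, 32.7 and 48.3 CPM to 1884, 2402 and 3088 CPM (6.07 ± 0.73, adjusted p = 1.68e-04). The other members were close to absent in the warm leaves. miR399a_3 had 5, 5 and 6 reads in CL and 1242, 1832 and 2462 in LL. miR399a_6 had 1, 1 and 9 and 660, 711 and 1123 reads, and miR399f_3 1, 4 and 4 and 567, 415 and 729. miR399_1 had 0 reads in the CL libraries and 210 in the LL libraries, which puts it at least 79.1-fold higher in LL when the floor is set at 3 counts over the group. miR399j_2 had 1 read in CL and 520 in LL, a ratio of 588 with a 95% counting interval of 105 to 23251, which covers counting error only. Each of the 6 calls of mature entries was kept under all 16 alternatives run on single miRNAs.

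**Figure D3:**
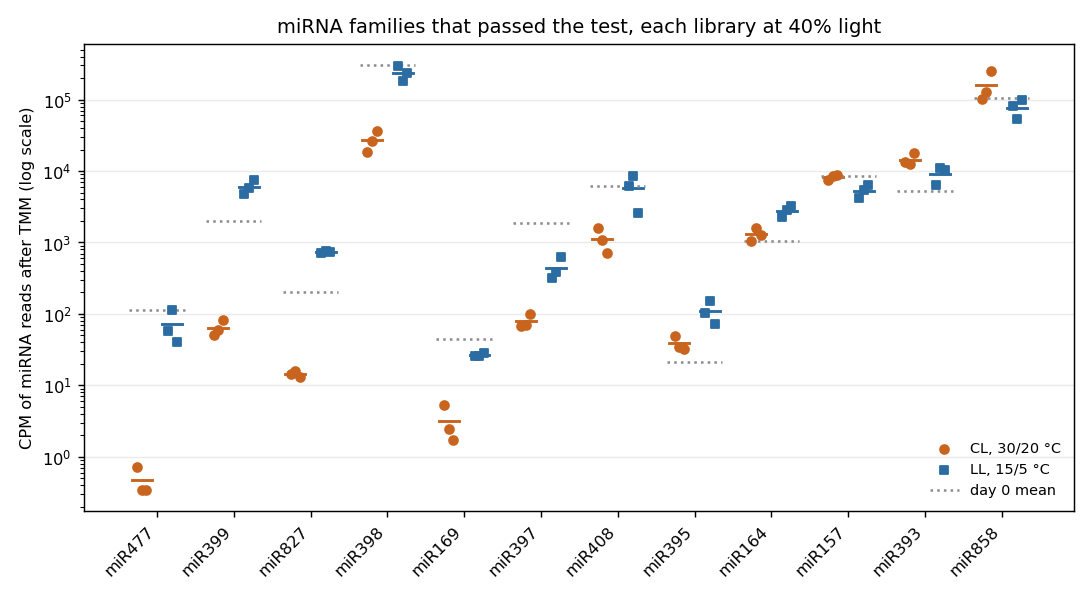
CPM of miRNA reads (vertical log axis) of the 12 families that passed the test, for the 3 CL libraries (orange circles) and the 3 LL libraries (blue squares). Short bars are group means and dotted lines the mean of the 3 day 0 libraries. The families are ordered by log2 difference from miR477 (7.12) to miR858 (-1.04), and in none of the 12 do the CL and LL points overlap.

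The families that save copper were all higher in LL. Of the 3, 3 rose (against 26.5% of all families), with a median log2 difference of 2.48 against 0.47 over all families. They lower abundant copper proteins when copper is short. miR397, which targets laccases, stood at 67.2, 70.6 and 101 CPM in CL and 316, 389 and 627 CPM in LL. The groups were clearly apart, a 5.57-fold rise (2.48 ± 0.42, adjusted p = 4.26e-04) that was kept under all 18 alternatives. Its member miR397a_5 had 4, 2 and 3 reads in CL and 46, 50 and 72 in LL (4.33 ± 0.40, adjusted p = 1.49e-05).

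The miR398 family stood at 18571, 25945 and 36505 CPM in CL and 292640, 183970 and 232290 CPM in LL. It rose 8.75-fold (3.13 ± 0.83, adjusted p = 0.0111), a rise that no longer passed without CL replicate 2 (2.80, adjusted p 8.66e-04 to 0.0771 over all alternatives). As a single miRNA, miR398b rose as well (3.13 ± 0.86, adjusted p = 0.0207), and that call was lost when any 1 of the 6 libraries other than LL replicate 2 was left out (adjusted p 0.00200 to 0.110 over all alternatives). miR408 targets plantacyanin and laccases. It stood at 1575, 1074 and 721 CPM in CL and 6126, 8448 and 2629 CPM in LL, with LL replicate 3 the lowest of the cool libraries. The rise was 5.11-fold (2.35 ± 0.77, adjusted p = 0.0338). It was lost without CL replicate 2 (2.09), CL replicate 3 (2.10), LL replicate 1 (1.92) or LL replicate 2 (1.74), with library size only and with the most abundant member (adjusted p 0.0100 to 0.127 over all alternatives). As side values that were not tested, the day 0 mean was 1858 CPM for miR397 and 302430 CPM for miR398. For miR408 the mean was 6246 CPM on day 0 and 5734 ± 2929.5 CPM in LL.

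The phase change list holds miR156 and miR157, which hold back SPL factors and with them the shift from juvenile to adult leaves, and miR172, which lowers AP2-like factors. Of its 3 families 1 fell (against 8.82% of all) and 0 rose (against 26.5%), with a median log2 difference of -0.64 against 0.47. miR157 stood at 7463, 8524 and 8871 CPM in CL and 4172, 5384 and 6371 CPM in LL, so each cool library was below each warm one (-0.64 ± 0.23, adjusted p = 0.0407). The call was lost without CL replicate 1 (-0.66) or 3 (-0.60), while with library size only the log2 difference was -1.08 (adjusted p 5.64e-04 to 0.122 over all alternatives). miR156 stood at 3308, 4447 and 4295 CPM in CL and 1924, 2523 and 3148 CPM in LL. Its groups did not overlap, but it did not pass (-0.67 ± 0.26, adjusted p = 0.0592). It passed with the replicate number as a block (-0.69, adjusted p = 0.00481) and under 10 other alternatives (adjusted p 0.00368 to 0.216 over all alternatives). miR172 overlapped between the groups (0.39 ± 0.35, adjusted p = 0.421).

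Within miR156 the members did not move alike. Most of its mature reads were held by miR156a-5p and miR156k_2, with 13196 and 9775 reads in CL, against 392 for miR156a. Both overlapped between the groups and did not pass (-0.57 ± 0.31, adjusted p = 0.210, and -0.73 ± 0.34, adjusted p = 0.153). miR156a stood at 37.9, 48.00 and 50.7 CPM in CL and 13.6, 15.5 and 24.4 CPM in LL and fell (-1.35 ± 0.28, adjusted p = 0.00410). miR156_2 fell too (-1.31 ± 0.37, adjusted p = 0.0224), a fall that no longer passed without CL replicate 3 (-1.18, adjusted p 6.62e-04 to 0.0748 over all alternatives). The opposite-arm entry miR156e-3p_1 stood at 8.94, 15.7 and 14.4 CPM in CL and 59.5, 78.4 and 62.03 CPM in LL. Every cool library was above every warm one, and the rise was kept under all 16 alternatives (2.35 ± 0.43, adjusted p = 0.00211). Of the miR157 members, miR157d fell (-0.95 ± 0.26, adjusted p = 0.0213), a fall that no longer passed without CL replicate 1 or 3 (adjusted p 6.62e-04 to 0.0858 over all alternatives). miR157a-5p fell as well (-0.85 ± 0.29, adjusted p = 0.0468), a fall that no longer passed without LL replicate 1 or 2 or without CL replicate 1 or 3 (adjusted p 0.00214 to 0.102 over all alternatives).

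Among the 4 families that target MYB and TCP factors 1 fell (against 8.82% of all families) and 0 rose (against 26.5%), with a median log2 difference of -0.02 against 0.47. miR858 lowers MYB factors that switch on flavonol and related phenylpropanoid genes. It stood at 100540, 126170 and 249420 CPM in CL and 80212, 53506 and 97162 CPM in LL. The groups did not overlap, though the lowest warm library was close to the highest cool one, and the family fell 2.06-fold (-1.04 ± 0.36, adjusted p = 0.0379). CL replicate 3 was the highest warm library by far. Without it the log2 difference was -0.57 and did not pass, nor did it without LL replicate 2 (-1.10) or in a fit of only the 6 libraries (adjusted p 0.00342 to 0.202 over all alternatives). miR828, a regulator of MYB factors of anthocyanin synthesis, was rare, with 22, 20 and 9 reads in CL and 12, 14 and 13 in LL. A difference was not detectable at this depth (-0.20 ± 0.65, adjusted p = 0.804). miR159, which targets GAMYB-type factors, overlapped between the groups (0.17 ± 0.24, adjusted p = 0.603).

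miR319 lowers TCP factors of leaf growth. It stood at 71.2, 33.04 and 15.7 CPM in CL and 134, 83.7 and 65.7 CPM in LL, where CL replicate 1 reached into the range of the cool libraries. It did not pass (1.24 ± 0.47, adjusted p = 0.0542), but did so with the replicate number as a block (1.32, adjusted p = 0.0330) and under 4 others, among them leaving out CL replicate 1 (2.03; adjusted p 0.00749 to 0.566 over all alternatives).

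Of the 4 families of auxin signalling 1 fell (against 8.82% of all) and 0 rose (against 26.5%), with a median log2 difference of 0.29 against 0.47. The one that fell was miR393, which lowers the TIR1 and AFB auxin receptors. It stood at 13224, 12495 and 17723 CPM in CL and 6289.8, 11041 and 10316 CPM in LL. No cool library reached the lowest warm one (-0.65 ± 0.22, adjusted p = 0.0379), and the call was lost without CL replicate 1 (-0.68) or 3 (-0.49; adjusted p 8.26e-04 to 0.158 over all alternatives). With library size only it stood at -1.08. Its main member miR393h carried a fall kept under all 16 alternatives, from 9409 ± 1561 to 4990 ± 1031 CPM (SD, n = 3; -0.92 ± 0.22, adjusted p = 0.0101). The families that target auxin response factors overlapped between the groups. Their log2 differences were 0.52 ± 0.93 for miR160 (adjusted p = 0.662) and 0.18 ± 0.22 for miR167 (adjusted p = 0.551). miR390, which starts the trans-acting RNAs against other such factors, stood at 0.41 ± 0.22 (adjusted p = 0.175).

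In the list of leaf and meristem development, 1 of 4 families rose, near the 26.5% of all families, and 0 fell (against 8.82%). The median log2 difference was 0.56 against 0.47. miR164 lowers NAC factors that shape leaf margins and take part in leaf ageing. It stood at 1065, 1604 and 1287 CPM in CL and 2301, 2864 and 3244 CPM in LL. All cool libraries were above all warm ones, by 2.13-fold (1.09 ± 0.31, adjusted p = 0.0167), and CC held more than either (5870 ± 354 CPM, SD, n = 3). The call was lost when any 1 of the 6 libraries was left out (lowest log2 difference 0.82, without LL replicate 2) and with library size only (0.65). It was also lost with no filter, the stricter filter, scaling factors from the family sums and miR398b left out of the scaling. These were 11 of 18 alternatives (adjusted p 0.0135 to 0.142 over all alternatives). miR166 did not pass (0.03 ± 0.34, adjusted p = 0.949), and miR396, a regulator of GRF growth factors, did not either (-0.19 ± 0.21, adjusted p = 0.538).

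Single names of miR396 went different ways. miR396a-3p_5 stood at 96.6, 106 and 98.3 CPM in CL and 297, 318.9 and 335 CPM in LL and rose (1.66 ± 0.30, adjusted p = 0.00211), a rise that no longer passed with library size only (1.22, adjusted p 1.68e-05 to 0.0585 over all alternatives). miR396a-5p had the lowest log2 difference of all single miRNAs, with 653, 607 and 5013 reads in CL and 14, 0 and 1 in LL (-8.52 ± 2.78, adjusted p = 0.0420). The call was lost when any 1 of the 6 libraries was left out (adjusted p 1.54e-05 to 0.125 over all alternatives). In CL replicate 3, where miR396a-5p had 5013 reads, miR396b had 3, against 8011 and 4802 in the other CL libraries and 3726, 3513 and 2533 in LL. The part of this shift between names in the result was not tested.

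The 3 families that target the small-RNA machinery had a median log2 difference of 0.27. miR168, which lowers Argonaute 1, stood at 5271, 7495 and 5638 CPM in CL and 6885, 9581 and 8095 CPM in LL (0.42 ± 0.26, adjusted p = 0.258; -0.02 with library size only). Its groups overlapped and it did not pass. miR162, which lowers Dicer-like 1, and miR403, which lowers Argonaute 2, did not pass either, at 0.16 ± 0.37 (adjusted p = 0.731) and 0.27 ± 0.24 (adjusted p = 0.421). The single entry miR168, with 1232 of the 52757 family reads in CL, rose from 143 ± 36.1 to 352 ± 44.97 CPM (SD, n = 3; 1.30 ± 0.32, adjusted p = 0.0117). That rise no longer passed when any 1 library other than CL replicate 3 was left out and with predicted miRNAs left out (adjusted p 0.0117 to 0.126 over all alternatives). The main entry miR168a-5p, with 47700 reads in CL, overlapped between the groups and did not pass (0.33 ± 0.27, adjusted p = 0.411). miR482, which targets disease resistance genes, did not pass (0.60 ± 0.28, adjusted p = 0.115).

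In the list of GRAS and NF-Y regulators 1 of 3 families rose, near the 26.5% of all families, and 0 fell (against 8.82%), with a median log2 difference of 1.44 against 0.47. miR169, which lowers NF-YA factors of the drought response, was counted with 15, 7 and 5 reads in CL and 69, 58 and 76 in LL. The LL libraries lay close together and above every CL library (3.06 ± 0.72, adjusted p = 0.00687). Hairpin reads made up 74.1% of the family in CL and 89.7% in LL, and with mature reads only the log2 difference was 1.68 and did not pass. The call was also lost without CL replicate 2 (2.67, adjusted p 5.64e-04 to 0.113 over all alternatives). miR171, which targets GRAS factors, overlapped (0.13 ± 0.23, adjusted p = 0.662), and miR170 held 7, 8 and 8 reads in CL and 18, 16 and 22 in LL without passing (1.44 ± 0.72, adjusted p = 0.138). The list of families known to respond to cold in Arabidopsis shares all of its members with the lists above. Of its 8 families 3 rose (miR397, miR408 and miR169; against 26.5% of all families) and 1 fell (miR393; against 8.82%), with a median log2 difference of 0.81 against 0.47 over all families.

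The miR477 family, which is in none of the lists, had 2, 1 and 1 reads in CL and 154, 260 and 109 in LL. It was close to absent from every CL library and present in every LL library. The pooled 4 and 523 reads give a ratio of 148 with a 95% counting interval of 57.4 to 544 (log2 difference 7.12 ± 1.11, adjusted p = 2.62e-04), and the call was kept under all 18 alternatives. The 4 reads in CL were all hairpin reads, whereas mature reads were a part of the family in each LL library. miR477-5p_2 had 0 reads in CL and 139 in LL (at least 52.4-fold higher), and miR477a_3 had 0 and 31 (at least 11.7-fold higher). Mean levels of the family in the other groups were 78.2 CPM in CC, 6.74 CPM in LC and 113 CPM on day 0, so CL was the lowest of the 5 groups.

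Predicted miRNAs were named by the authors' pipeline, have no known targets in the sources used here and were listed with either 0 or at least 10 reads. novel_mir31 had 0, 16 and 0 reads in CL and 381, 464 and 503 in LL (6.55 ± 1.26, adjusted p = 0.00275; 11.77 without CL replicate 2, where the remaining CL libraries are at 0). novel_mir68 stood at 16.8, 23.7 and 27.4 CPM in CL and 315, 410.2 and 362 CPM in LL (3.998 ± 0.84, adjusted p = 0.00460). Both rises were kept under each alternative run. novel_mir3 rose 9.05-fold, to 1986 ± 329 CPM in LL (SD, n = 3; adjusted p = 0.0155), a rise that no longer passed without LL replicate 3 or any 1 of the CL libraries (adjusted p 3.83e-04 to 0.0818 over all alternatives). Smaller rises were those of novel_mir16 (1.34 ± 0.24, adjusted p = 0.00211), lost with library size only, and novel_mir38 (1.22 ± 0.23, adjusted p = 0.00211), lost without CL replicate 2 (0.87; adjusted p 6.62e-04 to 0.0892 over all alternatives).

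The predicted miRNAs that fell had log2 differences down to -1.89. novel_mir18 stood at 324, 371 and 389.9 CPM in CL and 72.4, 101 and 138 CPM in LL (-1.80 ± 0.33, adjusted p = 0.00211). novel_mir17 stood at 76.2, 74.4 and 69.2 CPM in CL and 14.02, 14.6 and 30.6 CPM in LL (-1.89 ± 0.40, adjusted p = 0.00472). novel_mir8 stood at 222, 204 and 164.3 CPM in CL and 94.7, 73.98 and 94.5 CPM in LL (-1.17 ± 0.19, adjusted p = 0.00175). For these 3 the groups did not overlap and the call was kept under each alternative run. novel_mir42 (-1.33 ± 0.37), novel_mir70 (-1.26 ± 0.38), novel_mir62 (-0.78 ± 0.24) and novel_mir2 (-0.78 ± 0.24) fell too. None of these calls passed when CL replicate 1 or LL replicate 3 was left out, nor did those of novel_mir42, novel_mir70 and novel_mir62 when CL replicate 2 was, or those of novel_mir70, novel_mir62 and novel_mir2 when CL replicate 3 was (highest adjusted p 0.0733, 0.103, 0.155 and 0.106).

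Hairpin entries hold reads given to the precursor rather than to the mature name. Fitted in 1 table with the mature and predicted entries (284 of 419 tested, of which 16.5% rose and 7.39% fell, 23.9% in all), 19 of 105 hairpins rose and 6 fell, with a median log2 difference of 0.47. The split over the 284 entries, 47 rises and 21 falls, moved with the setting, to 33 and 35 under scaling by library size alone, 38 and 43 under the stricter filter, 39 and 28 under relative-log-expression factors and 46 and 40 in DESeq2. The hairpin of miR399b had 48, 67 and 67 reads in CL and 4039, 3696 and 6229 in LL (6.41 ± 0.44, adjusted p = 8.96e-07), that of miR827a 6, 5 and 9 and 286, 220 and 220 (5.33 ± 0.67, adjusted p = 2.48e-04). The hairpin of miR156a had 1795, 2560 and 2479 reads in CL and 354, 305 and 691 in LL and fell (-2.20 ± 0.30, adjusted p = 5.18e-04). In each of these 3 the groups were apart. For 84 names both a mature and a hairpin entry could be tested, and 64 of these had the same sign. Both passed for 19 names, always with the same sign, the mature entry alone passed for 6 and the hairpin alone for 3. Across the 84 names, which share libraries and often sequence, the log2 differences correlated with r = 0.75, given as a description. The share of family reads on hairpins differed little between CL and LL for miR399 (35.7% and 36.4%) and miR398 (2.24% and 1.92%), and was 10.8% and 19.4% for miR166, whose sum did not pass. It was 29.7% and 39.7% for miR393, 29.7% and 22.2% for miR156 and 36.1% and 41.1% for miR157.

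**Figure D4:**
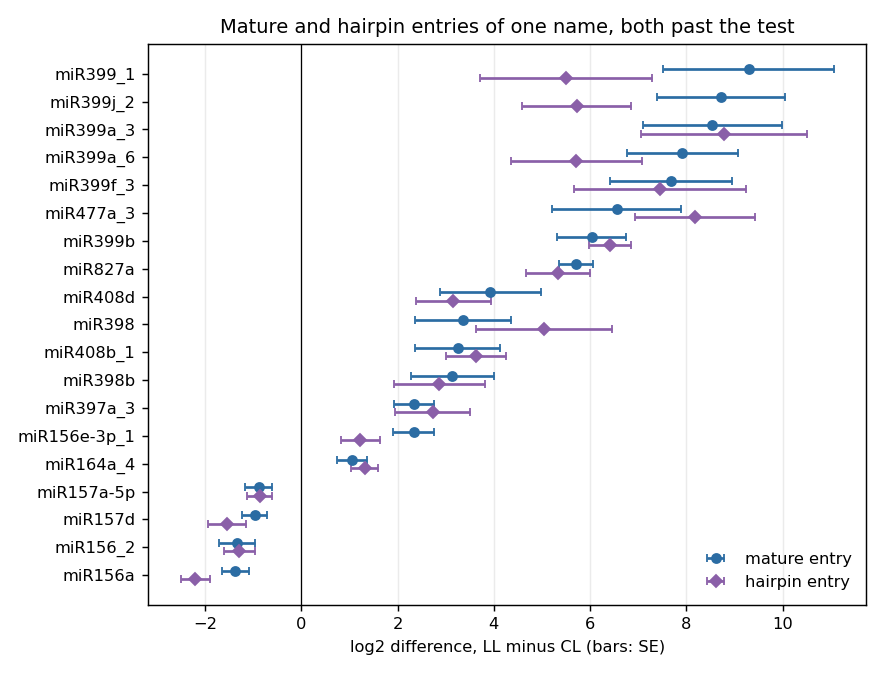
Log2 difference of LL minus CL ± SE (horizontal axis) for the 19 names whose mature entry (blue circles) and hairpin entry (purple diamonds) both passed in the fit of all entries. The 2 entries of a name lie on the same side of 0 throughout, with 4 names below 0, all of miR156 or miR157. Where an entry has 0 reads in CL, its position depends on the fit and is no bound.

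Other RNA classes were compared as shares of all counted reads. Hairpin reads made up 0.542%, 0.624% and 0.688% of the CL libraries and 0.833%, 0.868% and 0.865% of the LL libraries, which did not overlap (0.618% ± 0.073 and 0.855% ± 0.020, SD, n = 3; exact permutation p = 0.1, the smallest possible). Predicted siRNAs made up 2.98%, 2.90% and 3.21% in CL and 2.31%, 2.27% and 2.72% in LL, again without overlap (exact permutation p = 0.1). The number of siRNAs with at least 1 read was 5038 to 5097 in CL and 3820 to 4098 in LL. snRNA reads were at 0.0123% in CL and 0.0139% in LL on average, without overlap (exact permutation p = 0.1), and the order turned when shares were taken of reads other than exon, intron and intergenic ones. The shares of mature miRNA, predicted miRNA, intergenic, exon, intron, rRNA, snoRNA, tRNA and other Rfam reads overlapped between the groups. Entries of the precursor class (89 rows) held 0.0316% in CL and 0.0404% in LL and overlapped too.

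Cool against warm was also compared in full light by LC against CC, which shares no library with LL against CL, and the difference between both temperature effects was tested as an interaction. In LC replicate 1, 26.4% of the reads carried a miRNA name, against 15.7% and 14.8% in LC replicates 2 and 3. The miR398 family stood at 452930 CPM in LC replicate 1, against 60121 and 46186 CPM in LC replicates 2 and 3. Of the 34 families 18 passed in full light (52.9%), and 10 differed in their temperature effect between the light levels (29.4%), 5 with a higher and 5 with a lower value in shade. With scaling factors taken from the family sums, chosen after seeing the data, 8 were higher and 2 lower. Families called at both light levels numbered 9, or 75.0% of the 12 called in shade and 50.0% of the 18 called in full light. Of these 9, 6 moved the same way and 3 the opposite way. Among single miRNAs 76 of 179 passed in full light (42.5%) and 62 differed between the light levels (34.6%), 45 with a higher and 17 with a lower value in shade, or 35 and 25 when libraries were scaled by their full read totals. At both light levels 27 were called, 56.3% of the 48 in shade and 35.5% of the 76 in full light, 20 in the same and 7 in the opposite direction.

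The nutrient families that rose in shade rose in full light as well. For both phosphate families the step was larger in shade, a difference that no longer passed under 7 (miR399) and 4 (miR827) of 23 alternatives. miR399 differed by 4.41 ± 0.49 (log2) in full light and 6.56 ± 0.54 in shade (interaction 2.15 ± 0.61, adjusted p = 0.0139), and miR827 by 3.99 ± 0.30 and 5.67 ± 0.31 (interaction 1.68 ± 0.39, adjusted p = 0.00462). For the copper families the interaction did not pass, with 0.25 ± 0.57, adjusted p = 0.797 for miR397, -0.76 ± 1.08, adjusted p = 0.702 for miR398 and -0.35 ± 1.03, adjusted p = 0.810 for miR408. Opposite directions past the test at both light levels were seen for miR164 (-3.26 ± 0.34 in full light), miR169 (-2.54 ± 0.69) and miR477 (-3.52 ± 0.86), all lower in LC than in CC and higher in LL than in CL. miR156 rose in full light (1.62 ± 0.27) and stood at -0.67 ± 0.26 in shade. miR168 and miR2111 rose in full light (1.98 ± 0.27 and 2.98 ± 0.35) and did not pass in shade. The miR2111 rise was one of hairpin reads, since its mature entry held 0 reads in CC and 1 in LC.

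**Figure D5:**
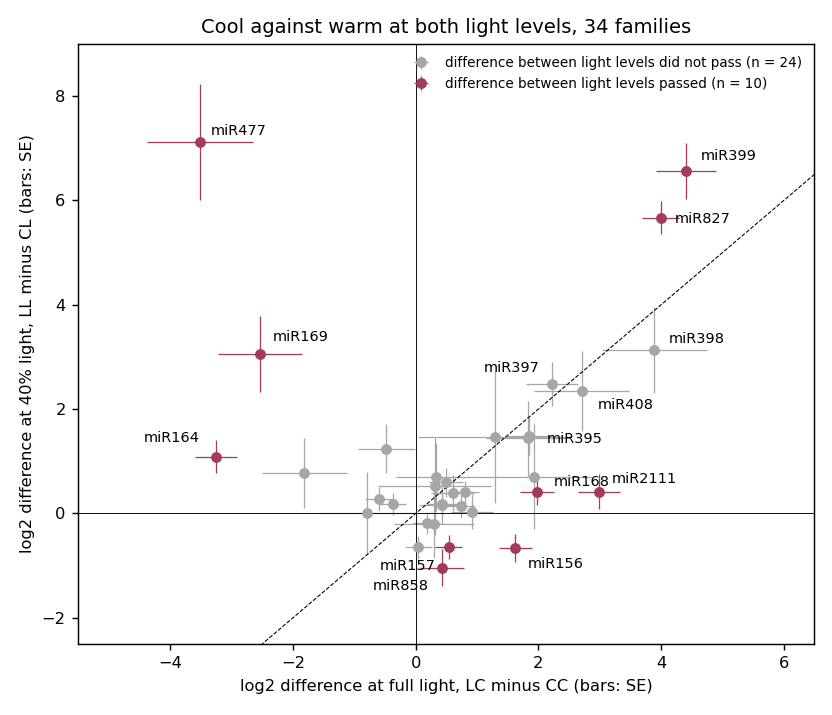
Log2 difference of each of the 34 families in full light (LC minus CC, horizontal axis) and in 40% light (LL minus CL, vertical axis), with bars for SE. Red marks the 10 families whose interaction passed and grey the other 24, and the dashed line marks equal differences. miR477, miR169 and miR164 lie to the left of 0 and above it, while miR397, miR398 and miR408 lie near the line.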

How the data were processed

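The authors deposited 1 table for all 15 libraries. Its counts are the authors' raw numbers of reads per small-RNA entry, and its TPM values, per the file headers and the values, are the same counts per 1000000 of the column total (within 0.005) and were not tested. Per the labels' protocols an RNeasy kit gave total RNA, and small-RNA libraries were cut from PAGE gels. The aligner, build and databases were not given in the sources used here.

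Counts were filtered with filterByExpr, scaled by TMM (factors 0.8275 to 1.5706 in the 6 libraries) and fitted in edgeR 4.0.16 (R 4.3.3) with 1 mean per group over 15 libraries. Families (summed mature and hairpin reads of 1 miRNA number) used the scaling of the single miRNAs. The table of all entries was scaled on its own. Depth was 18166662 to 20822592 reads, and single counts carry counting error only in their intervals. Identical values in 2 libraries were looked for, and every pair differed. Class shares were compared by exact permutation.

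Members and lists were chosen with earlier results of these data known. Named were the 15 largest rises and falls called with groups apart and at least 10 CPM, the list families, the 10 most abundant, 5 hairpins each way, the 10 smallest interaction p and entries at 0. The text names a part of these, and its choice of further members (miR156e-3p_1, miR396a-3p_5, the miR168 and hairpin entries and some predicted miRNAs) was made after their values were seen. Deviations from the group mean of same-numbered LL and CL libraries correlated across families (r = 0.77, 0.52 and 0.59), so numbers were taken to pair the libraries there, but not across single miRNAs (0.16, -0.20 and -0.03). The family fits reported leave this pairing out, since the labels do not say what a number shares. With the number as a block 14 families passed, namely the 12 reported plus miR156 (adjusted p = 0.00481) and miR319 (adjusted p = 0.0330). The LL against CL fits of single miRNAs and families were tested on simulated data. Simulated families were scaled on their own sums, unlike the families reported. The interaction and the fit of all entries were not simulated. The simulated data held neither paired libraries nor reads exchanged between names and so cannot show how these act on the calls. Alternatives were other size factors (relative-log-expression, library size only, all reads), other filters, DESeq2 1.42.0 and the replicate block. Further ones were only the 6 libraries, predicted miRNAs left out, other family sums, a fold of at least 2 and each library left out. Scaling factors from the family sums and miR398b left out of the scaling were alternatives that had not been planned. Figures were drawn with matplotlib 3.10.9.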

Additional observations from a re-analysis of the deposited data

Results flagged for a closer look

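The results here had a temperature difference that changed between 40% and full light, by edgeR's quasi-likelihood test of the interaction with Benjamini-Hochberg adjustment, a test of the difference itself. Values are (LL minus CL) minus (LC minus CC) on the log2 scale, over 3 libraries in each of the 4 groups.

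Families with a higher value in shade were miR477 (10.64 ± 1.41, adjusted p = 7.20e-05), which rests on 4 reads in CL, miR169 (5.596 ± 1.00, adjusted p = 7.44e-04), miR164 (4.34 ± 0.45, adjusted p = 1.06e-05), miR399 (2.15 ± 0.61, adjusted p = 0.0139) and miR827 (1.68 ± 0.39, adjusted p = 0.00462). The miR399 call was lost under 7 of 23 alternatives, among them leaving out CC replicate 2, CL replicate 1 or 2 or LL replicate 3, and the miR827 call under 4, among them leaving out CC replicate 2, CL replicate 2 or LC replicate 1. The other 5 families had a lower value in shade, namely miR2111 (-2.57 ± 0.47, adjusted p = 8.08e-04), miR156 (-2.29 ± 0.37, adjusted p = 4.08e-04), miR168 (-1.56 ± 0.37, adjusted p = 0.00523), miR858 (-1.47 ± 0.50, adjusted p = 0.0397) and miR157 (-1.18 ± 0.32, adjusted p = 0.0122). Nearly all reads of miR2111 were hairpin reads. With the replicate number as a block miR858 stood at -1.44 and did not pass (adjusted p = 0.0562). Its call was also lost without CC replicate 3, CL replicate 3 or LC replicate 2 or 3. With scaling factors from the family sums miR157 (-0.95, adjusted p = 0.107), miR168 (-1.34, adjusted p = 0.0725) and miR858 (-1.31, adjusted p = 0.0942) did not pass.

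Of single miRNAs, the 10 with the smallest adjusted p are given. novel_mir2 fell in shade and was listed at 0 in all 3 LC libraries, so its value depends on the fit and is no bound (7.93 ± 0.50, adjusted p = 5.05e-06). miR164a_4, which carries most miR164 reads, followed its family (4.37 ± 0.46, adjusted p = 5.63e-05), and miR156a did so too (-2.67 ± 0.39, adjusted p = 4.46e-04). miR396b-3p_2 rose in shade (0.96 ± 0.32, adjusted p = 0.0468), a call lost under 14 of 16 alternatives, and fell in full light (-3.47 ± 0.36; interaction 4.43 ± 0.48, adjusted p = 5.63e-05). Predicted miRNAs that were lower in LC than in CC and did not pass in shade in the fit reported were novel_mir61 (4.76 ± 0.61, adjusted p = 2.39e-04), novel_mir44 (2.98 ± 0.47, adjusted p = 7.68e-04), novel_mir58 (2.15 ± 0.29, adjusted p = 2.62e-04), novel_mir48 (1.82 ± 0.24, adjusted p = 2.39e-04), novel_mir35 (1.68 ± 0.25, adjusted p = 5.30e-04) and novel_mir20 (1.67 ± 0.22, adjusted p = 2.39e-04). Other settings gave a fall in shade for novel_mir48 (7 alternatives), novel_mir20 (6) and novel_mir35 (2), and a rise for novel_mir58 with the replicate number as a block and for novel_mir61 without CL replicate 1.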

How the results depend on the processing

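With predicted miRNAs left out, 29 single miRNAs passed in LL against CL and 24 in the interaction. With miR398b left out of the scaling, 25 single miRNAs rose and 21 fell in LL against CL. In that setting the miR156 family passed (adjusted p = 0.0139) and the miR164 family did not (adjusted p = 0.0929). Leaving out each library in turn gave 27 to 40 single miRNAs, 7 to 12 families, 43 to 63 of all entries (43 without LL replicate 1), 51 to 65 single miRNAs and 9 to 12 families in the interaction. Class shares (LL minus CL, percentage points) turned for exon (-0.236 to 0.381) and intron (-0.475 to 0.355) when a library was left out, as did snoRNA (-0.00134 to 0.00104). As shares of reads other than exon, intron and intergenic ones, rRNA stood at -0.397, snRNA at -0.00276 and snoRNA at -0.00865. With library size only, the families miR2111 (-0.054) and miR168 (-0.024) turned. The cause was not tested.

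Over the single results named, 128 of 702 values from leaving out a library lost a call and 8 gained one, and 69 of 948 values under other settings lost one, 25 gained one and 2 reversed. With the replicate number as a block 44 single miRNAs, 14 families, 61 entries and, in the interaction, 57 single miRNAs and 9 families passed. Apart from the families named above, the block changed the calls of miR396a-5p, miR858b, novel_mir2, miR396b-3p_2, miR159a-5p, novel_mir58 and 2 hairpins, among results whose numbers do not pair the libraries. Counts of a few reads in CL limit the size of the differences of miR477 and of the minor miR399 members. The SE and p of low entries follow the spread of all 15 libraries.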

Other observations

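Several pairs of names within a family exchanged their reads between libraries of 1 group. miR162-3p had 26782, 25330 and 7 reads in LL and miR162a-3p 83, 13 and 15818. miR395b_3 had 252 and 0 reads in LL replicates 1 and 3 and miR395a_5 had 0 and 183. miR396a-3p_1 had 30, 2156 and 2 reads in CL and 53, 3 and 5412 in LL, against 1855, 36 and 2727 and 3421, 3306 and 4 for miR396a-3p_4. miR167d_1 had 4 reads in LL replicate 1, where miR167d-5p had 5892. None of these names passed in LL against CL, and the family sums of miR162, miR167 and miR396 overlapped between the groups. How the reads were divided between these names is not given in the sources used here.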
